A study of Mus musculus with 168 samples.

Results

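The 89 genes described here encode subunits of the mitochondrial respiratory chain and of ATP synthase, together with complex I assembly factors that share their symbol prefix. They were taken by name from the annotation of the array: every gene whose symbol starts with Nduf, Uqcr, Atp5, Sdha to Sdhd, or Cox4 to Cox8, out of 19752 genes with a probe set of 1 symbol. A gene with several probe sets was represented by the one with the highest mean log2 intensity over all arrays. Of the 89 genes, 85 passed the filter on dim signals in the vehicle arrays, and Cox7b2, Cox8b, Ndufa4l2 and Ndufaf6 did not. Ndufb4 and Cox7c appeared only on probe sets annotated with several symbols and were left out by the rule.

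The respiratory chain sits in the inner mitochondrial membrane. Complexes I (NADH dehydrogenase) and II (succinate dehydrogenase) pass electrons to ubiquinone, complex III passes them to cytochrome c and complex IV to oxygen. Complexes I, III and IV pump protons, and ATP synthase uses the return flow through its membrane part, Fo, to drive ATP synthesis in its catalytic part, F1. Most subunits are encoded in the nucleus, so a complex needs the products of many separate genes alongside the few made from mitochondrial DNA. Mature neutrophils are known to hold few mitochondria and to rely largely on glycolysis, whereas resident macrophages are rich in them.

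The series followed JAK inhibition in vivo. Male C57BL/6 mice aged 6 weeks were gavaged with 1 of 5 compounds or with vehicle, and sorted immune cells were profiled in bulk on Affymetrix Mouse Gene 1.0 ST arrays in 7 experiments. The spleen populations were F4/80+ macrophages (MF, 33 arrays), FLT3+ dendritic cells (DC, 20), NK1.1+ natural killer cells (NK, 27), CD4+ T cells (T4, 39) and Ly6G+ granulocytes (GN, 16), and the peritoneal population was F4/80+ or F4/80+ ICAM2+ macrophages (PMF, 33). The compounds carry the codes SB00513404 (20 arrays), SB00526221 (32), SB00526222 (43), SB00526226 (18) and SB00526228 (9), with no dose in the labels. The vehicle was 0.5% MC (39 arrays), and 7 arrays came from mice given the same vehicle at pH 3. Prolonged dosing in the spleen meant 14 to 28 treatments with harvest 14 to 18 h after the last one, and 20 spleen arrays, all from experiment J2, were harvested 4 h after the last of 3 treatments. T cells also had 2 arrays at 3 h and 3 arrays at 18 h after 1 treatment. Peritoneal macrophages were taken early (1.5 to 6 h after the last treatment, 18 arrays), late (18 to 28 h, 9 arrays) or 18 h after 14 treatments (6 arrays). All groups share sex, strain and age.

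Marker genes set the sorted populations apart. The summed granulocyte list (mean log2 of 5 genes) reached 12.6 in vehicle GN arrays and stayed at or below 7.03 in all other vehicle arrays, although 1 T4 array outside the vehicle group reached 10.3. The macrophage list ran from 11.2 to 11.8 in MF and PMF. The tissue label of the spleen macrophages was not borne out by the markers: Gata6, a transcription factor of peritoneal macrophages, stood at 11.06 ± 0.237 (SD, n = 8) in spleen MF and 11.13 ± 0.310 (SD, n = 9) in PMF, and the red pulp macrophage list was lower in spleen MF (7.14) than in DC (7.95). Within that list Vcam1 (5.91 against 7.71) and Spic (5.05 against 7.94) were lower in spleen MF than in DC. Hmox1 was higher (10.46 against 8.21). T4 arrays had the T cell list at 12.3, while NK arrays held it at 9.02 and DC arrays at 7.60. In DC, Cd4 averaged 10.38, with Cd3e at 7.23, Cd3g at 5.86 and Lef1 at 6.95. Over all populations, 16 arrays correlated less well with the rest of their population, and the vehicle contrast below is also given without them. Values are log2 of the deposited RMA intensities, and a difference of 1 is a 2-fold change. Levels of separate genes come from separate probes and were not set against each other.

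In vehicle-treated mice the chain genes were lowest in granulocytes and highest in the macrophages. The mean log2 intensity over the 89 genes was 9.43 ± 0.083 (SD, n = 9) in PMF, 9.41 ± 0.173 (n = 8) in MF, 9.21 ± 0.244 (n = 8) in T4, 9.12 ± 0.162 (n = 6) in DC, 9.06 ± 0.272 (n = 3) in NK and 8.56 ± 0.135 (n = 5) in GN. All 5 GN arrays, from 8.38 to 8.71, lay below every array of the other populations, whose lowest was an NK array at 8.80. The remaining populations overlapped: T4 ranged from 8.81 to 9.53, DC from 8.88 to 9.30, NK from 8.80 to 9.34, MF from 9.10 to 9.63 and PMF from 9.26 to 9.54. The order of neighbours other than GN therefore did not separate beyond the spread of the arrays. Of the 9 PMF vehicle arrays, 6 were early and 1 late after 1 treatment, and 2 followed 14 treatments. Spleen vehicle arrays came from prolonged dosing, except 1 T4 array at 3 h after 1 treatment. Population and schedule therefore cannot be fully told apart in comparisons of PMF with spleen populations. In these bulk samples fewer cells of a type and less RNA per cell cannot be told apart, and the normalization gives every array a similar overall distribution.

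**Figure D1:**
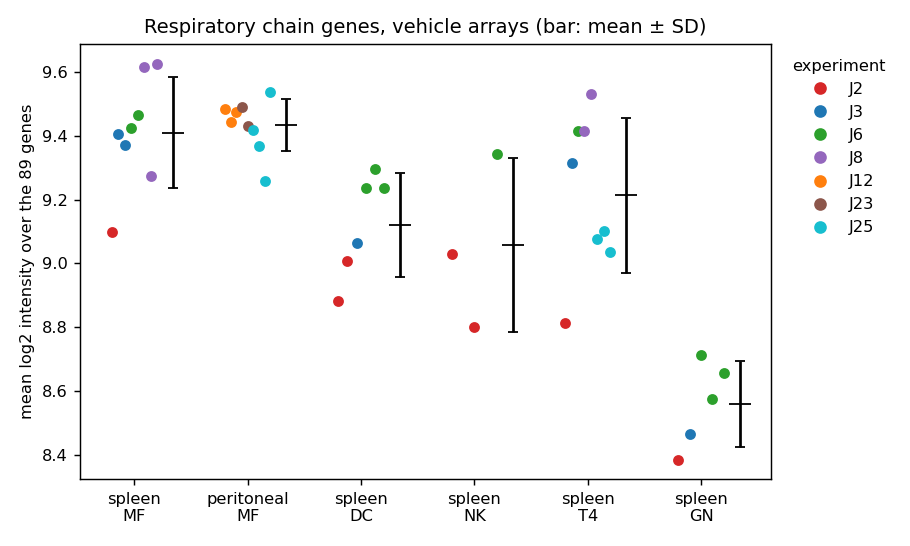
Mean log2 intensity over the 89 respiratory chain genes (vertical axis) in each vehicle array, by population, coloured by experiment, with the mean ± SD of each population. The 5 GN arrays lie between 8.38 and 8.71, below all arrays of the other populations, and experiment J2 supplies low arrays in each spleen population.

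The GN mean differed from the mean of the other populations by -0.689 on the log2 scale. Within single experiments the same difference was -0.558 in J2, -0.792 in J3 and -0.717 in J6, the 3 experiments with granulocytes. Leaving out each array in turn gave -0.727 to -0.645, and without the arrays that stood apart it was -0.681. Most genes of the array also moved: 93% of the 12614 genes tested differed between the 6 populations by the moderated F test of limma, against 81 of the 85 chain genes. The range of a chain gene's population means ran from 0.20 to 3.18 log2 units with a median of 0.927.

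Gene by gene, 69 of the 85 tested chain genes were lower in GN than in the average of the other populations and 3 were higher (limma with experiment as a term and animal as a random block, Benjamini-Hochberg adjusted p under 0.05 over all genes). Among all genes tested, 45.9% were called lower and 32.2% higher. PMF, a part of that average, shared no experiment with GN. In the fit it was tied to GN only through the T4 vehicle arrays of experiment J25. The median difference was -0.640 for the chain genes and -0.164 over all genes. That general shift depends on scaling: quantile normalization turned the all-gene median to 0.03, with 38.7% of genes lower and 41.4% higher, and left 53 chain genes lower and 6 higher with a median of -0.506. Relative to the all-gene median the chain genes stood at -0.476 as deposited and -0.540 after quantile normalization, and 73 and 69 of 85 lay below that median. Under the deposited scale, median centring and quantile normalization alike, 52 genes were called lower and 3 higher, while the sign differed between scalings for 12. These 12 were Atp5mpl, Cox6b2, Cox7a2l, Cox8a, Ndufa13, Ndufa8, Ndufaf3, Ndufb10, Ndufb7, Ndufs6, Sdhd and Uqcr10. Ndufa13, Ndufa8, Ndufaf3 and Uqcr10 were called lower as deposited and were positive but not called after quantile normalization (0.04, 0.03, 0.07 and 0.20).

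**Figure D2:**
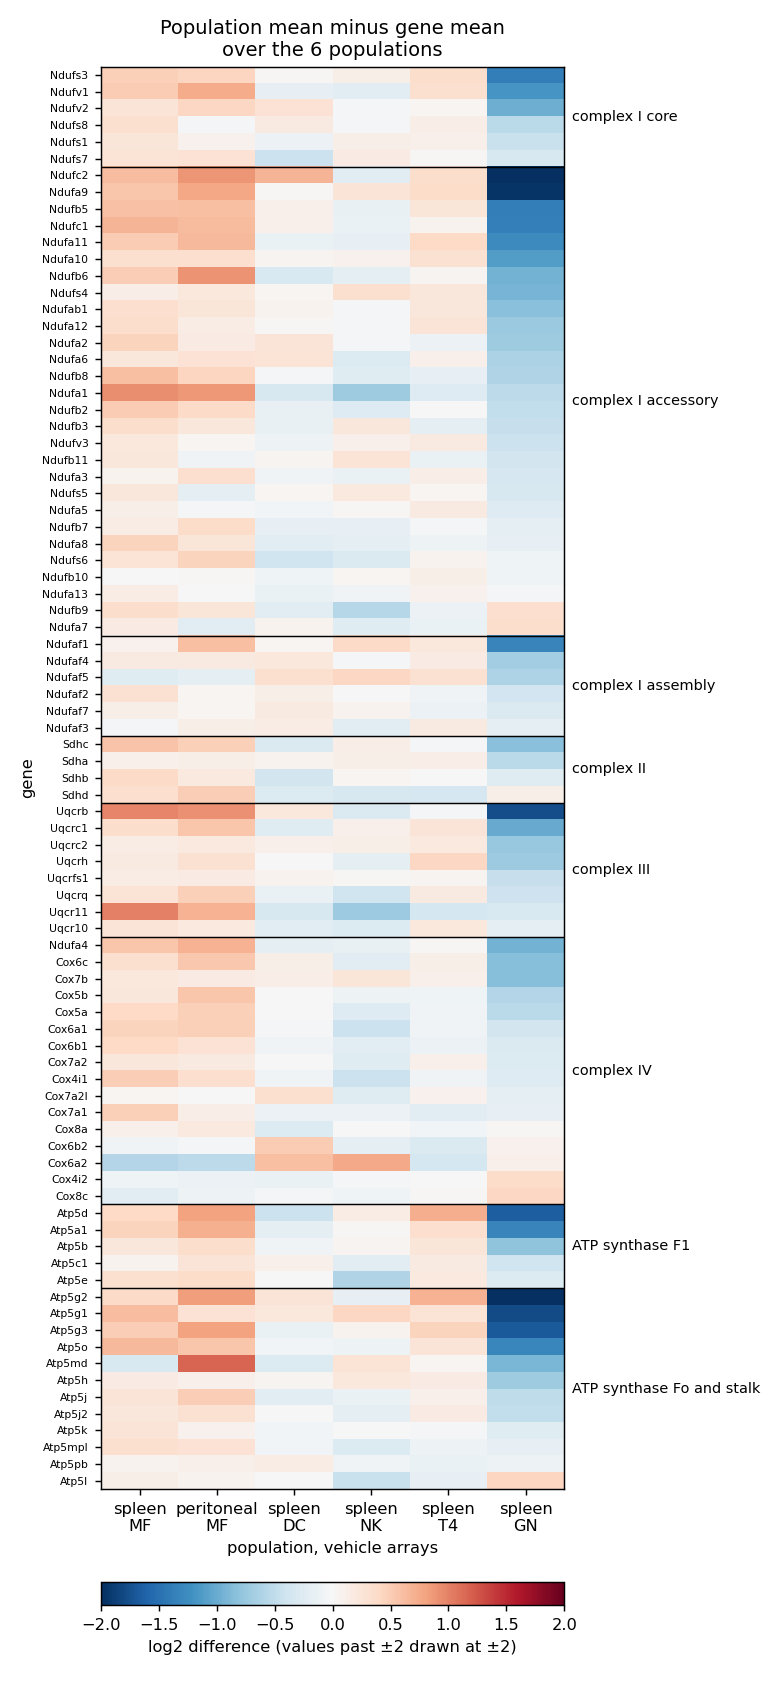
Population mean minus the gene's mean over the 6 populations (colour, log2 units, vehicle arrays) for the 85 tested genes, in the order of their complexes. The GN column is blue for most genes, while Atp5l, Cox4i2 and Cox8c are red in it.

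Complex I oxidises NADH. All 6 of its tested core subunits and 23 of its 28 accessory subunits were lower in GN, with class medians of -1.11 and -0.719 (4 and 18 under quantile normalization, where 1 accessory gene was higher). As a class the core subunits averaged 9.09 ± 0.148 (SD, n = 5) in GN, against population means of 9.86 to 10.2 elsewhere.

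Ndufc2, an accessory subunit of the membrane arm (probe set 10555055), read 8.53 in the J2 GN array, 7.89 in the J3 array and 9.37, 8.23 and 8.76 in the J6 arrays. Its lowest, median and highest values were 10.65, 11.57 and 11.84 in MF, 11.49, 11.67 and 12.06 in PMF, 10.65, 11.68 and 11.96 in DC, and 10.37, 11.20 and 11.78 in T4. The 3 NK arrays read 10.32, 10.17 and 11.41. Every GN array was below every other vehicle array for Ndufc2, and the fitted difference was -2.94 (SE 0.153, adjusted p = 3.7e-18), which is 7.68-fold lower. Ndufa9, an accessory subunit near the base of the peripheral arm (probe set 10548057), also separated without overlap. Its GN arrays read 6.88, 6.78, 7.08, 6.51 and 6.96, and its lowest array elsewhere was a DC array at 8.40. The difference was -2.39 (SE 0.113, adjusted p = 2.4e-19), or 5.25-fold. Ndufa9 had means of 9.35 in MF, 9.58 in PMF, 8.83 in DC, 9.06 in NK and 9.17 in T4, so apart from GN the populations lay within a narrow band.

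Ndufs3, a core subunit, read 8.27, 7.96, 8.33, 7.91 and 8.23 in the GN arrays and at least 9.33 in every other vehicle array. It was lower in GN, with a difference of -1.75 (SE 0.108, adjusted p = 4.2e-16). Ndufv1, the flavin-binding core subunit that accepts electrons from NADH, read 7.73, 6.81, 7.72, 7.38 and 7.79 in GN against population means of 8.44 to 9.41. Its difference was -1.45 (SE 0.20). Ndufs1, the largest core subunit, differed less (-0.59, SE 0.108) and lost the call under quantile normalization. The 5 accessory genes not called were Ndufb7 (-0.26, adjusted p = 0.054), Ndufs6 (-0.21), Ndufb10 (-0.11), Ndufb9 (0.13) and Ndufa7 (0.25). Quantile normalization called Ndufb9 higher in GN, at 0.32.

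The 6 tested complex I assembly factors, which help build the complex but are not part of it, were all lower in GN (median -0.626; 5 under quantile normalization). Ndufaf1, a factor for the membrane arm, averaged 6.85 in GN and 8.22 to 8.77 elsewhere, a difference of -1.67 (SE 0.130). Ndufaf5 averaged 6.05 in GN, 6.43 in MF, 6.49 in PMF, 6.98 in DC, 7.07 in NK and 6.96 in T4. For Ndufaf5 the macrophages were thus also on the low side, with MF differing from NK by -0.51, from DC by -0.48 and from T4 by -0.49, each past the threshold.

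**Figure D3:**
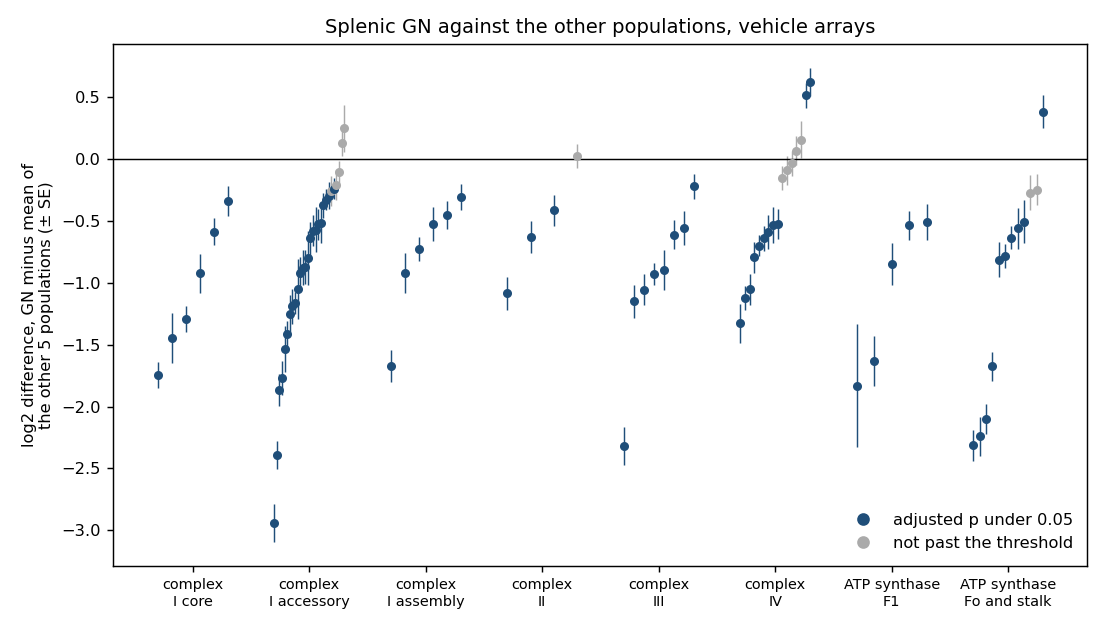
Difference between GN and the average of the other populations (vertical axis, log2 units, ± SE) for each tested gene, grouped by complex. Blue points passed the adjusted p threshold of 0.05 and grey points did not; Ndufc2 lies lowest at -2.94 and Cox8c highest at 0.62.

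Complex II, the entry point for electrons from succinate, was split. Sdha, Sdhb and Sdhc were lower in GN (-0.63, -0.42 and -1.08), whereas the difference for Sdhd was 0.02 (SE 0.095, adjusted p = 0.823; 95% interval -0.169 to 0.217). Sdhc and Sdhd encode the membrane anchors of the same complex. Sdhc read 8.90, 9.27, 9.32, 9.11 and 8.67 in the GN arrays, partly overlapping DC, which ranged from 9.18 to 9.90. Sdhd read 8.87, 9.09, 9.33, 9.45 and 9.36 in GN, 4 of the 5 within the span of MF (9.01 to 9.69) and all above the T4 median of 8.69. It was called lower than GN in DC, NK and T4 (-0.34, -0.30 and -0.34). Under quantile normalization Sdhd was called higher in GN (0.34) and Sdhb was no longer called lower.

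Complex III genes were lower in GN for all 8 members (median -0.912; 6 under quantile normalization). Uqcrb, the ubiquinone-binding protein of the complex, read 7.94, 7.76, 8.88, 8.75 and 8.39 in GN. The other populations averaged 11.09 in MF, 11.03 in PMF, 10.32 in DC, 9.83 in NK and 10.09 in T4, and the lowest array among them was a T4 array at 9.14. The Uqcrb difference was -2.32 (SE 0.155, adjusted p = 2.9e-15), with no overlap. Uqcr11, a small subunit, varied widely within populations: from 9.60 to 11.67 in MF, 8.75 to 10.72 in DC, 8.47 to 10.86 in T4 and 8.83 to 10.57 in GN, with 8.46, 8.96 and 10.85 in NK. Its GN difference was -0.90 (SE 0.164) in the fit, which adjusts for experiment. By plain means GN (9.85) was below MF (11.17) and PMF (10.84) only. DC stood at 9.83, T4 at 9.80 and NK at 9.42.

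Complex IV, cytochrome c oxidase, was the most mixed class, with 9 of 16 tested genes lower and 2 higher (median -0.529; 7 and 3 under quantile normalization). Its class mean in GN was 8.85 ± 0.185 (SD, n = 5), and the next populations were NK at 9.02 and T4 at 9.07. Cox6c read 10.60, 10.92, 11.44, 11.36 and 11.26 in GN against means of 11.76 to 12.51 elsewhere, and its difference was -1.12 (SE 0.098). Ndufa4, named for complex I but a component of complex IV, differed by -1.33 (SE 0.159). Cox8a, a structural subunit, did not differ detectably: its means were 11.28 in both GN and NK, 11.37 in MF, 11.45 in PMF, 10.99 in DC and 11.21 in T4, with a fitted difference of -0.03 (95% interval -0.238 to 0.169).

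ATP synthase was lower in GN for all 5 F1 genes and for 9 of 12 Fo and stalk genes, with 1 higher (medians -0.846 and -0.710; 4, and 7 with 1 higher, under quantile normalization). Atp5g1, Atp5g2 and Atp5g3 encode the same mature c subunit, whose ring carries the protons, and they were among the most shifted of all members. Atp5g2 (probe set 10560816) read 8.93, 8.57, 9.31, 9.35 and 9.47 in GN, and its lowest value in any other vehicle array was 10.69, in NK. Its difference was -2.31 (SE 0.126, adjusted p = 1.2e-17), or 4.97-fold. Atp5g1 read 9.47, 9.48, 9.72, 9.06 and 9.14 in GN against population means of 11.36 to 11.78, a difference of -2.24 (SE 0.156). Atp5g3 differed by -2.10 (SE 0.123). All 3 genes for the c subunit thus moved the same way, by a factor of more than 4 each (4.97, 4.72 and 4.29).

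In the F1 head, Atp5a1, the alpha subunit, read 8.79, 8.46, 8.70, 8.78 and 8.97 in GN, below the lowest array elsewhere (9.09, in DC). It differed by -1.63 (SE 0.202). Atp5d, the delta subunit, differed by -1.83, but its spread was the largest among the named genes (SE 0.496, adjusted p = 0.0013), with DC arrays from 8.61 to 12.34. Atp5l, the g subunit of Fo, went the other way at 0.38 (SE 0.134, adjusted p = 0.010). Its arrays ranged from 9.09 to 9.95 in GN and from 8.94 to 9.84 in MF, so the groups overlapped.

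Several complex IV subunits have a common and a tissue-restricted gene. The difference between partners was not tested, and the values of each are given side by side. Cox4i1, the common subunit 4 gene, was lower in GN (-0.52, SE 0.120), while Cox4i2, the form known from lung and hypoxic cells, was higher (0.52, SE 0.102, adjusted p = 3.2e-05). Cox4i2 read 7.53, 7.52, 7.48, 7.96 and 7.68 in GN, all above the highest array of the other populations, a T4 array at 7.47. The level was low throughout, with means of 7.13 to 7.25 outside GN. Cox8c, the testis form of subunit 8, averaged 7.52 in GN and 6.89 to 7.12 elsewhere and was higher by 0.62 (SE 0.115, adjusted p = 1.1e-05). Cox6a1, Cox6b1 and Cox7a2, common forms, were lower in GN (-0.59, -0.64 and -0.53). Their restricted partners Cox6a2, Cox6b2 and Cox7a1 differed by 0.15, 0.07 and -0.09, none past the threshold. By plain means NK was below GN for Cox4i1 (8.60 and 8.77) and Cox6a1 (8.96 and 9.03). The calls for Cox4i1, Cox6a1 and Cox7a2 were lost under quantile normalization (-0.17, -0.27 and -0.14), where Cox6a2 was called higher (0.53) and Cox7a1 lower (-0.27).

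Cox6a2, the heart and muscle form of subunit 6a, had its highest means in NK, DC and GN (8.79, 8.62 and 8.12, against 7.44 to 7.68). It read 9.29 and 8.62 in the J2 NK arrays and 8.45 in the J6 array, ranged from 7.84 to 9.07 in DC with a median of 8.79, and lay between 7.98 and 8.32 in GN. MF ranged from 7.22 to 7.57, PMF from 7.31 to 7.78 and T4 from 7.27 to 7.93. Neither NK nor GN arrays overlapped MF, PMF or T4, whereas DC overlapped T4 and GN. Cox6a2 was the 1 chain gene called between NK and T4 (1.16 higher in NK, SE 0.217, adjusted p = 0.00010), and it was 0.98 higher in DC than in T4 and differed by -1.36 between MF and NK. NK arrays carried the DC marker list at 8.17. Within that list Itgax averaged 11.88 in NK and 12.47 in DC. Flt3 (7.10 against 11.57), Zbtb46 (6.90 against 8.33) and Siglech (6.98 against 9.71) were lower in NK than in DC. Xcr1 ranged from 6.47 to 9.05 in NK and from 10.36 to 11.69 in DC. The part of shared cells in the Cox6a2 values was not tested. Cox6b2, the testis form of subunit 6b, was highest in DC (7.21 to 7.53), by 0.57 (SE 0.111) over the average of the others. Cox7a1, the muscle form of subunit 7a, was highest in MF (6.71 to 7.69), by 0.52 (SE 0.101). The untested Cox8b, Ndufa4l2 and Cox7b2 stayed dim everywhere but also had their highest mean in GN: 7.02 against 6.43 to 6.50, 6.82 against 6.23 to 6.43, and 5.25 against 4.70 to 5.03. Some genes of other lineages did so too, among them the erythroid factor Klf1 (6.37 in GN against 5.90 to 6.02) and the platelet genes Itga2b (7.58 against 7.01 to 7.14) and Gp9 (7.01 against 6.39 to 6.79). Others did not: Pf4, also on the platelet list, averaged 6.40 in GN and 12.69 in MF. The B cell gene Cd79b and the macrophage gene Mertk had their lowest mean in GN (7.35 and 5.83). The part of a general rise of dim probe sets in the Cox4i2 and Cox8c differences was not tested.

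**Figure D4:**
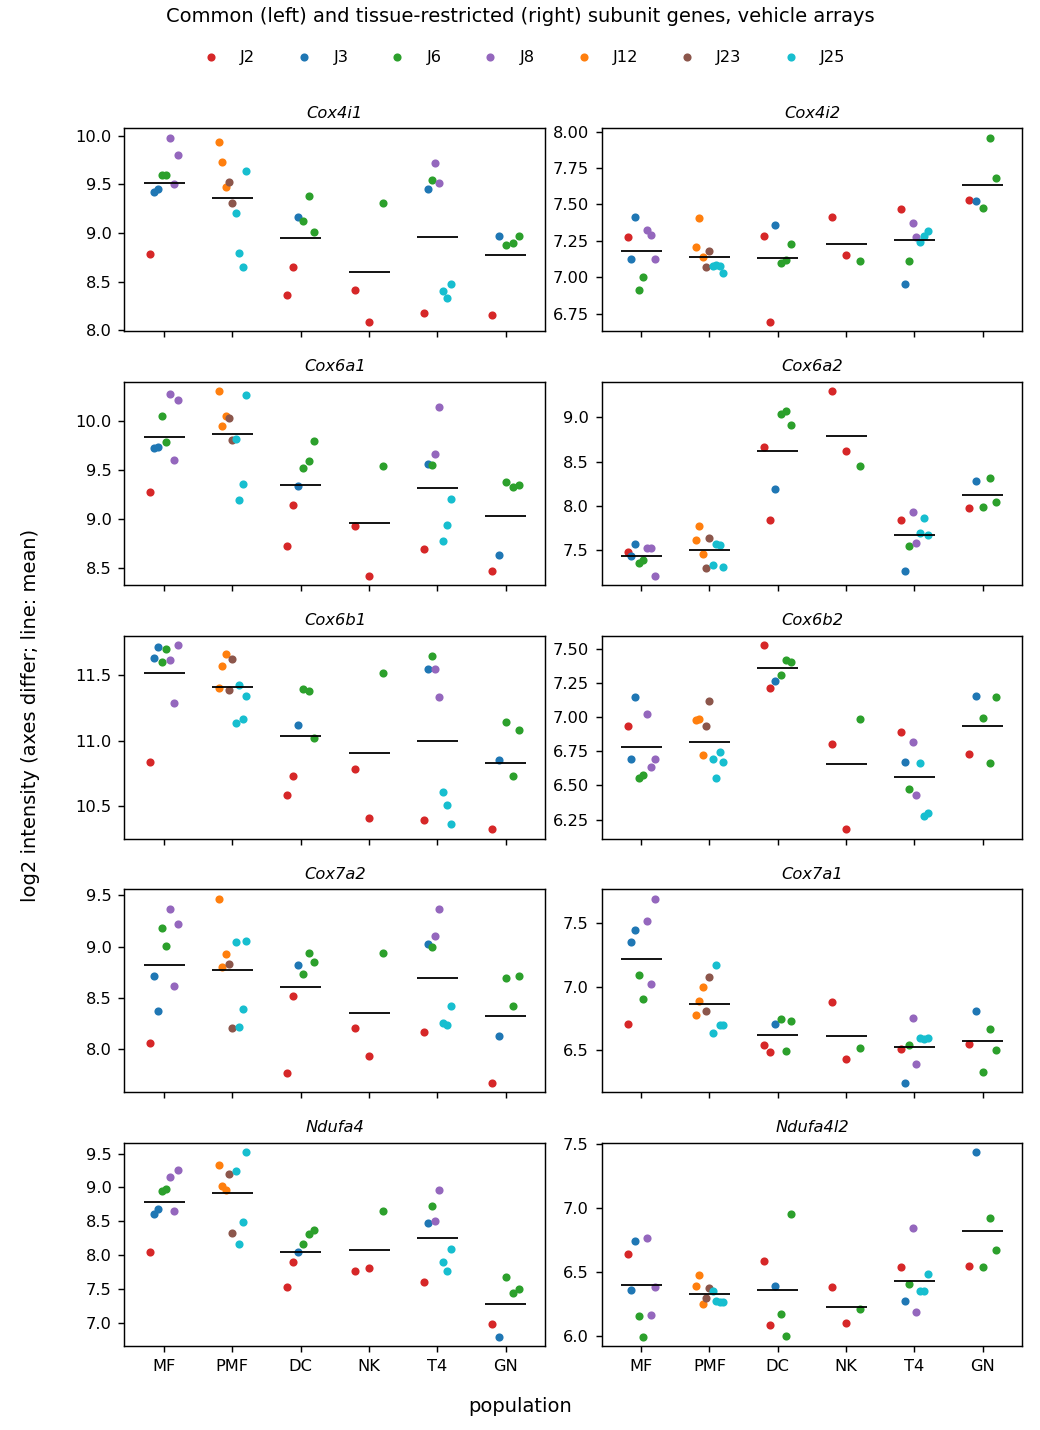
Log2 intensity (vertical axes, which differ) of common subunit genes at left and tissue-restricted ones at right in each vehicle array, by population, coloured by experiment, with a line at each mean. Cox6a2 is high in NK and DC and Cox4i2 is above 7.47 in all 5 GN arrays.

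Promoter windows were available for 73 of the 89 genes from RefSeq (GRCm38.p6), each running from 250 bases before to 50 after a gene's start. They were searched on both strands for 5 words: GCGCANGCG (NRF1, nuclear respiratory factor), CCGGAAGT (GABP, also called NRF2), AAGATGGC (YY1), TCAAGGTCA (ESRRA, oestrogen-related receptor alpha) and TGACGTCA (CREB). The NRF1 word occurred in 21 of the 73 genes (28.8%), against 7.03% of all 27025 genes with a window. The YY1 word occurred in 10 (13.7%, against 3.19%), GABP in 5 (6.85%, against 4.31%), CREB in 4 (5.48%, against 2.03%) and ESRRA in 2 (2.74%, against 0.4662%). At least 1 of the words was present in 36 of 73 genes (49.3%, against 15.2%). Chain gene windows were also richer in G and C (median 58%, against 52.7%), and a word such as GCGCANGCG is itself rich in these bases. By complex, words were found in 9 of 11 Fo and stalk genes, 14 of 26 complex I accessory genes and 4 of 5 complex III genes, but in 2 of 13 complex IV genes.

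The 120 bases before the start are printed for 5 genes, 5′ to 3′ on the gene's strand, with the matched word in capitals. Atp5g2 (chr15:102671048-102671167) and Atp5g3 (chr2:73911327-73911446) are shown as c subunit genes strongly lower in GN, Sdhd (chr9:50603850-50603969) as the complex II gene that was not, Uqcr11 (chr10:80406822-80406941) as a complex III gene that varied widely within populations and Cox6a1 (chr5:115348959-115349078) as a common complex IV isoform. All lie on the minus strand.
Atp5g2: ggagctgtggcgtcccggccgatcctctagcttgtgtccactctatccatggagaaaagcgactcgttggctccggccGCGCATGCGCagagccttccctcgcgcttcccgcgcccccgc
Atp5g3: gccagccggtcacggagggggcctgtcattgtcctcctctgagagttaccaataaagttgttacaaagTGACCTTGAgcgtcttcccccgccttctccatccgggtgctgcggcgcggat
Sdhd: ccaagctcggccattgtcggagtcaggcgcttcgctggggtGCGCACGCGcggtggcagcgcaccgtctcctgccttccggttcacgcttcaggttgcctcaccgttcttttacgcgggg
Uqcr11: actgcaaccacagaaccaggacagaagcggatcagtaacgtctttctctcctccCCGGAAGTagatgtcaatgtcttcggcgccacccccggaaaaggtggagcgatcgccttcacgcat
Cox6a1: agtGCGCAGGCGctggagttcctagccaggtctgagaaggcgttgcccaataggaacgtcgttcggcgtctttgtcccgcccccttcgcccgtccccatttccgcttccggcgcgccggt
The capitals mark an NRF1 word in Atp5g2, Sdhd and Cox6a1, the reverse complement of the ESRRA word in Atp5g3 and a GABP word in Uqcr11. The NRF1 word thus stands both before Atp5g2, with a GN difference of -2.31, and before Sdhd, at 0.02. A match describes letters in the window and not a bound site.

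Between single populations, the chain genes separated GN from each of the others far more than the others from each other. Against GN, 68 of 85 were higher and 4 lower in MF (43% and 35.2% of all genes), and 68 were higher and 3 lower in PMF (38.5% and 27.1%). DC had 62 higher and 5 lower (39.2% and 33.6%), NK 57 and 4 (38.3% and 27.3%), and T4 62 and 5 (42.1% and 32.4%). Quantile normalization left fewer calls: 54 higher and 9 lower in MF, 47 and 3 in PMF, 46 and 11 in DC, 45 and 6 in NK, and 46 and 6 in T4. In the same order 4572, 4004, 4350, 4163 and 4540 of all genes were then higher, and 5390, 4484, 5326, 4416 and 4880 lower. The median difference of the chain genes ranged from 0.51 for DC to 0.98 for PMF.

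The macrophages came next. MF had 29 chain genes higher and 5 lower than DC (28.1% and 20% of all genes), 7 higher and 2 lower than NK (21.2% and 18.6%) and 13 higher and 4 lower than T4 (25.7% and 27.6%). The higher share over DC was thus 29 of 85 against a background of 28.1%, and those over NK and T4 lay below their backgrounds. PMF had 28 higher and 2 lower than DC (22.2% and 12.7%), 24 and 2 against NK (19% and 12.5%) and 34 and 1 against T4 (25.9% and 22.3%). Under quantile normalization PMF had 19 higher and 2 lower than DC, 17 and 1 against NK and 25 and 1 against T4. Among all genes, 2413, 2195 and 2965 were then higher and 1938, 2066 and 3339 lower. Peritoneal arrays shared an experiment with spleen arrays only in J25, through 4 PMF and 3 T4 vehicle arrays. Within J25 the mean over the 89 genes was 9.40 in PMF (9.26 to 9.54) and 9.07 in T4 (9.04 to 9.10), without overlap. All comparisons of PMF with a spleen population other than T4 pass through those 3 T4 arrays. Most PMF vehicle arrays also differed from the spleen ones in hour and number of treatments.

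MF and PMF differed in 4 chain genes, all lower in MF (0 higher; 3.84% and 0.737% of all genes): Ndufaf1 (-1.03), Uqcr11 (-1.02), Cox6b1 (-0.61) and Atp5j2 (-0.56). The plain means ran the other way for Uqcr11 (11.17 in MF and 10.84 in PMF) and for Cox6b1 (11.52 and 11.41); the fit, unlike the means, adjusts for experiment. Without experiment as a term, 1 chain gene was called between MF and PMF. Ndufa1, a small membrane-arm subunit, had means of 8.03 in MF and 7.97 in PMF against 6.39 to 6.83 elsewhere. Ndufa1 was 1.21 higher in MF than in NK, but its array ranges overlapped between MF (7.12 to 8.75) and T4 (6.20 to 7.84).

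Few chain genes were called among DC, NK and T4. DC had 3 higher and 5 lower than NK (15.8% and 20.3% of all genes), 3 higher and 13 lower than T4 (17.4% and 25.6%), and NK had 1 higher and 0 lower than T4 (7.1% and 8.5%). Those higher in DC than in NK were Cox6b2 (0.69), Ndufc2 (0.68) and Cox7a2l (0.58). With 3 NK vehicle arrays, a miss here does not show equal levels.

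Other gene groups put the granulocyte difference in context, each with calls against the average of the other populations. All are descriptive counts, and the shares called among all genes, 45.9% lower and 32.2% higher, hold for them too. Of 14 tricarboxylic acid cycle genes, 13 were lower and 0 higher (median -0.784), among them Fh1 (fumarase, 6.65 in GN), Idh3a (6.53) and Suclg2 (6.18). Fatty acid oxidation had 9 of 13 lower and 0 higher (median -0.782; 7 lower and 4 higher under quantile normalization), and Hadh, an enzyme of the beta-oxidation cycle, averaged 6.50 in GN against 8.54 to 10.9. Mitochondrial ribosomal proteins had 65 of 77 lower and 1 higher (median -0.873). Further assembly factors and carriers had 21 of 27 lower and 2 higher (median -0.842). Cox18, which inserts a complex IV subunit into the membrane, averaged 7.73 in GN and 9.34 to 9.79 elsewhere.

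Glycolysis genes were mixed, with 8 of 15 higher and 5 lower in GN (median 0.370; 9 and 2 under quantile normalization). Against PMF alone, 5 were higher and 5 lower. Hk3, a hexokinase of myeloid cells, averaged 9.61 in GN against 6.40 to 8.26, and Slc2a3, a glucose transporter, 11.6 against 6.29 to 9.63. Pfkfb3, an activator of the pathway, was highest in DC (9.84) and averaged 8.46 in GN. Cytosolic ribosomal proteins were lower in 59 of 61, 1 being higher (median -1.48), with Rpl10a at 9.54 against 12.5 to 12.9. The lower signal in GN was not limited to mitochondrial genes. Regulators of mitochondrial biogenesis were lower in 10 of 16 and higher in 4 (median -0.537). Ppargc1a, the coactivator PGC-1alpha, averaged 7.49 in NK, 6.78 in DC and 5.60 to 5.70 elsewhere, and Myc averaged 6.42 in GN against 8.99 to 10.3. Interferon-stimulated genes were higher in GN for 11 of 15 and lower for 2 (median 1.04).

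Transcripts of the mitochondrial genome were represented by 2 probe sets each with the symbols COX2 and ND3, a complex IV and a complex I subunit. GN had the lowest mean on all 4. COX2 averaged 12.25 ± 0.257 and 12.34 ± 0.195 in GN (SD, n = 5) against means of 12.8 to 13.3 elsewhere. ND3 averaged 9.44 ± 0.262 against 10.8 to 11.3 on one probe set, and 8.86 ± 0.273 against 11.4 to 12.1 on the other. Of the 17 chain genes with several probe sets, 16 had the same sign of GN difference on all of them. The exception was Atp5pb, at -0.13 and 0.13.

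Experiment J2 ran lower than J3 and J6 for many chain genes, a contrast chosen after the data were seen. In vehicle arrays adjusted for population, 40 of 85 were lower and 1 higher (8.47% and 5.64% of all genes), with a median of -0.316 against -0.01 over all genes. The lower genes included Uqcr11 (-1.68), Ndufb9 (-1.35), Atp5j2 (-0.71), Uqcrh (-0.87), Cox4i1 (-0.85) and Ndufa13 (-0.77), which are small subunits of several complexes. Atp5md, a small Fo subunit, was 1.58 higher in J2 (SE 0.155, adjusted p = 3.0e-08). By complex, 15 of 28 complex I accessory, 5 of 8 complex III, 9 of 16 complex IV and 7 of 12 Fo and stalk genes were lower, against 1 of 6 core and 1 of 6 assembly genes. Over all arrays of each population J2 had the lowest mean: 8.90 against 9.21 and 9.22 in DC, 8.40 against 8.64 and 8.62 in GN, 9.04 against 9.39 to 9.45 in MF, 8.96 against 9.30 to 9.48 in NK, and 8.93 against 9.13 to 9.52 in T4. J2 holds every 4 h array, and MF, T4 and GN have 1 vehicle array each in J2, so 4 h values in these populations rest largely on that array.

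No chain gene was called between an inhibitor and the vehicle it was set against. The 4 h schedule had no vehicle arrays, so its inhibitor arrays were set against vehicle after prolonged dosing. In those comparisons the hour and the number of treatments cannot be told apart from the inhibitor. In 18 comparisons of pooled compounds, by population and schedule, 1 of 1491 tests of a chain gene passed the limma threshold (0.105% of all gene tests did), and that 1 compared 2 schedules of the same compounds. Single compounds against vehicle gave 0 of 2407 tests after prolonged or peritoneal dosing (0.0747% of all gene tests) and 0 of 1159 at 4 h (0.0317%). The 22 comparisons of one compound with another at matched schedules gave 0 of 1832 (0.00165%). The 4 comparisons between vehicle arrays, pH 3 against plain vehicle in MF, T4 and GN and early against later vehicle in PMF, gave 0 of 330 (0% of 44123 gene tests). At an unadjusted p under 0.05 the counts were 72 of the pooled tests (4.83%, against 5.62% of all gene tests), 89 single-compound (3.70%, against 4.28%), 51 at 4 h (4.40%, against 6.26%), 89 between compounds (4.86%, against 4.10%) and 16 between vehicles (4.85%, against 3.03%). The median half-width of the 95% intervals ran from 0.180 to 0.643 in the pooled comparisons and from 0.272 to 0.750 between compounds. These intervals are not adjusted for the number of genes tested. Effects larger than the half-widths could therefore also go uncalled.

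After prolonged dosing the median chain gene differed from vehicle by 0.11 in GN (56 of 80 positive), 0.06 in NK (55 of 84 positive), 0.02 in T4, -0.01 in DC and -0.06 in MF (65 of 84 negative). The corresponding all-gene medians ranged only from -0.01 to 0.05. In GN 11 of 80 chain genes passed an unadjusted 0.05 (13.8%, against 8.35% of all genes) and none the adjusted one. Within experiments the GN mean difference was -0.002 in J2, 0.239 in J3 and -0.131 in J6, which do not share a sign. The lowest adjusted p among the GN single-compound tests was for Ndufv1 with SB00526222 (1.04 higher, adjusted p = 0.160), whose 3 arrays all come from J3, where GN has 1 vehicle array. Uqcrb was 0.67 higher in GN under pooled prolonged dosing (SE 0.163, adjusted p = 0.261). Both genes were also called lower in GN than in the other populations, but the same GN vehicle arrays enter both comparisons. A low value in those arrays moves both, so these observations are not independent. For Ndufv1 the J3 vehicle array was the lowest of the GN vehicle arrays.

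**Figure D5:**
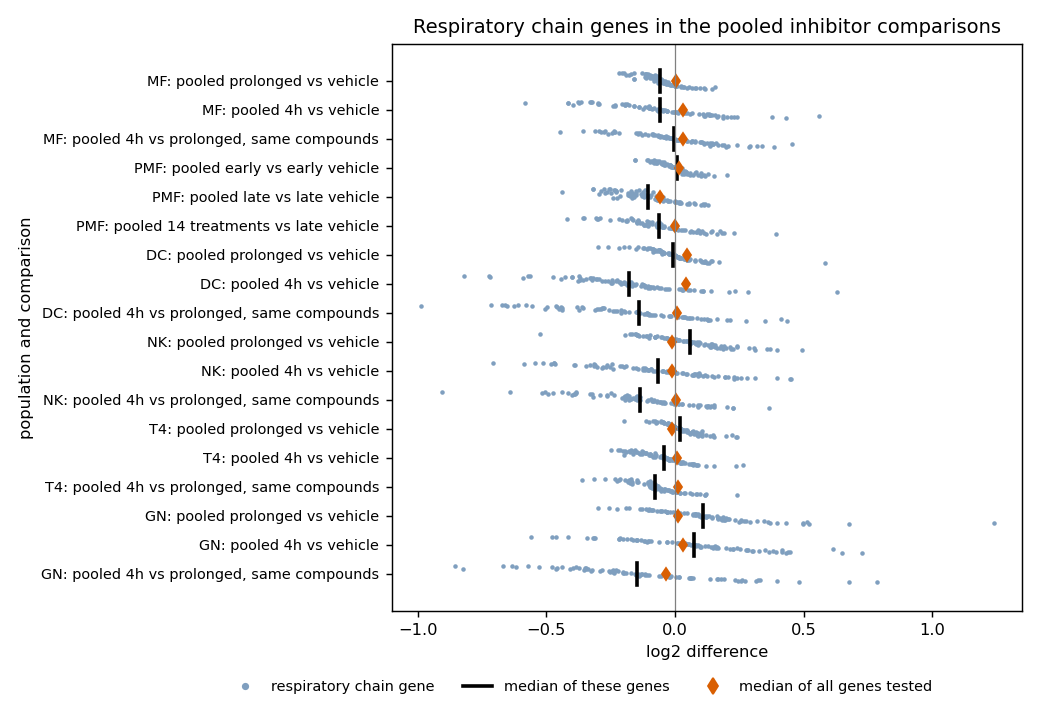
Log2 difference (horizontal axis) of each tested chain gene in the 18 pooled inhibitor comparisons, by population and schedule, with the median of the chain genes as a black bar and that of all genes tested as a diamond. Medians of the chain genes stay between -0.18 and 0.11.

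In peritoneal macrophages the median chain gene differed by 0.01 early, by -0.11 late (65 of 83 negative, against an all-gene median of -0.06) and by -0.06 after 14 treatments. Early PMF was the setting in which an interferon-stimulated list moved most, with 4 of 12 genes lower and a median of -0.807. Of all 10810 genes tested there, 7 were called lower. At the unadjusted threshold 0 of 83 chain genes passed there, against 3.68% of all genes. The late difference was -0.047 within J23 and -0.150 within J25. Vehicle at pH 3 differed from plain vehicle by a median of -0.11 in MF (73 of 84 negative), 0.19 in T4 (73 of 83 positive) and -0.20 in GN (57 of 80 negative, 1 pH 3 array). In MF and T4 both experiments lay on the same side: -0.143 and -0.106 in MF and 0.197 and 0.220 in T4. The medians of the pooled compound comparisons ran from -0.18 to 0.11, so the shifts between vehicles were of similar size. In the spleen, those against vehicle used plain vehicle for SB00526226 too. Prolonged SB00526226 alone had medians of -0.06 in MF and 0.03 in T4 against plain vehicle. Against vehicle at pH 3 the sign turned, with 0.08 in MF (62 of 84 positive) and -0.15 in T4 (64 of 83 negative).

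At 4 h, set against prolonged vehicle, the median chain gene was -0.18 in DC (68 of 83 negative), -0.06 in both MF and NK, -0.04 in T4 and 0.08 in GN. Within J2 alone the difference of the mean over the chain genes was -0.146 in DC, -0.059 in MF, -0.030 in NK, 0.106 in T4 and 0.076 in GN, so T4 turned sign. Ndufb6, an accessory complex I subunit, differed by -0.72 in DC at 4 h, with an adjusted p of 0.808. Sdhc differed by -0.54 in NK at 4 h (SE 0.143, adjusted p = 0.170). The difference was -0.65 with SB00526226 and -0.58 with SB00526221, neither past the threshold (adjusted p = 0.154 and 0.270).

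The 1 chain gene called was Atp5g1, a c subunit gene, in NK cells at 4 h against the same compounds after prolonged dosing (0.981% of all genes were called lower there). At 4 h it read 10.54 and 11.23 with SB00526221, 11.27 with SB00526222 and 10.70 and 10.79 with SB00526226. The 16 prolonged arrays of these compounds ranged from 11.04 to 12.06 with a mean of 11.62, so the groups overlapped. Within J2 the 4 prolonged arrays of these compounds read 11.58 to 12.06 and lay above all 4 h arrays. The 3 prolonged J2 arrays of SB00526228, which had no 4 h arrays and was not in the comparison, read 11.63, 11.75 and 10.12, the last below all 4 h arrays. Vehicle NK arrays read 11.87, 11.31 and 11.51. The fitted difference was -0.91 (SE 0.227, 95% interval -1.38 to -0.437, adjusted p = 0.0430). The call was lost with median centring (adjusted p = 0.0659) and with no filter on dim genes (0.0631), and leaving out single arrays gave 0 to 4 called chain genes. Over all tested chain genes the median of this NK comparison was -0.14, with 62 of 84 negative.

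The effect of prolonged dosing was also compared between the 5 spleen populations in 1 model. By the moderated F test of limma, 0 of 87 chain genes differed in this effect past the adjusted threshold (0.0228% of all genes did). At an unadjusted threshold 1 did, Ndufb2, at 0.030. Between compounds, the largest named differences included Atp5e in GN, 1.26 higher with SB00526222 than with SB00526228 (adjusted p = 0.775). In NK cells Ndufs7 differed by 0.68 and Atp5a1 by -0.67 between SB00526222 and SB00526228, and Ndufaf1 was 0.66 higher in T4 with SB00513404 than with SB00526221. None of these 4 passed the threshold.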

How the data were processed

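The authors' deposited table holds linear RMA intensities of 24922 probe sets on 168 arrays, made with Affymetrix Power Tools per the submitters' processing notes; its version is not given in the sources used here. Values were taken to log2 with no pseudocount. Of the probe sets, 21425 carried 1 gene symbol in the platform annotation, 1399 several and 2098 none that was listed. Genes entered a fit if they exceeded the array median in at least 3 of its arrays. Differences were tested with limma 3.58.1 in R 4.3.3, with experiment as a term and the animal, from the number in the title, as a random block in the vehicle fit (consensus correlation 0.0291), and p-values were adjusted by Benjamini-Hochberg over all genes tested. By these numbers each array of a population came from a different animal. No 2 arrays held identical values. The number of arrays limits the precision. The scripts were tested on simulated data. The members, gene lists and tests were chosen with earlier results of these data known. Genes named were the 2 with the largest range of population means in each class, the isoform pairs, up to 3 per list by the F test, and in each inhibitor comparison those past the threshold or at the extremes; others were named after their values were seen. Alternatives were quantile normalization, median centring, no filter, probe-set means, no experiment term, array weights, other array sets and leaving out single arrays.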

Additional observations from a re-analysis of the deposited data

Results flagged for a closer look

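Of 159 sets of 4 to 10 arrays of 1 group that were examined, 12 held an array far from the others by Dixon's criterion, and chance gives about 1 in 20. In 10 of the 12 the array came from experiment J2. The mean over the chain genes was 8.85 in a J2 DC array given SB00526222 for a prolonged time, where the nearest array of its group stood at 9.22. The J2 vehicle MF array read 10.87 for Atp5g2 (nearest 11.46), 10.65 for Ndufc2 (11.41), 9.60 for Uqcr11 (11.01) and 8.78 for Cox4i1 (9.42). A J2 vehicle DC array read 11.30 for Cox6c (nearest 12.09) and 7.77 for Cox7a2 (8.52). The J2 vehicle T4 array read 11.37 for Cox6c (nearest 12.02) and 10.41 for Cox8a (11.16), and the J2 vehicle GN array read 8.16 for Cox4i1 (nearest 8.87). The other two were a J8 vehicle T4 array at 10.34 for Atp5d (nearest 12.18) and a J12 early vehicle PMF array at 7.40 for Cox4i2 (nearest 7.21).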

How the results depend on the processing

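No called difference changed sign among the genes chosen by the naming rule. Over all 85 tested genes, 12 changed sign between scalings of the GN contrast, and Ndufa13, Ndufa8, Ndufaf3 and Uqcr10 of these were called lower as deposited. The GN contrast called 59 to 76 chain genes over the alternatives and 71 to 74 when arrays were left out one at a time. With no replicate block for the animal it called 72, and with the animal as a fixed replicate block 73, while the F test called 80 and 77. The GN mean difference moved to -0.499 under quantile normalization.

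Counts between other populations moved more. MF against PMF (4) became 2 with median centring, 1 without the experiment term, 42 with array weights, 1 without arrays that stood apart, 1 with the fixed block, 13 with pH 3 vehicle added, 0 with 14 or more treatments and 8 over all arrays. MF against NK (9) became 27 without the experiment term, 29 with weights, 17 without apart arrays, 16 over all arrays and 4 without J2. MF against T4 (17) became 31 with weights. PMF against DC (30) became 61 with weights. PMF against NK (26) became 52 with weights, 17 with 14 or more treatments and 16 without J2, and PMF against T4 (35) became 58 with weights and 21 with 14 or more treatments. DC against NK (8) became 5 without the experiment term and 14 with weights. DC against T4 (16) became 9 under quantile normalization, 10 with the fixed block and 32 with weights. NK against T4 (1) became 2 under quantile normalization or probe-set means, 8 with weights, and 3 without the experiment term, without apart arrays, with pH 3 vehicle or over all arrays. Leaving out single arrays gave 5 to 9 for DC against NK, 7 to 22 for DC against T4, 2 to 5 for MF against PMF and 1 to 2 for NK against T4. For these counts the cause was not tested.

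Among inhibitor comparisons, the single NK call at 4 h against prolonged dosing became 0 with median centring or no filter, 42 without the experiment term, 9 with weights and 3 without apart arrays, and 0 to 4 when arrays were left out singly. Of 38 inhibitor results at 0, 512 of 527 alternatives stayed at 0. Without the experiment term MF at 4 h gave 8, MF at 4 h against prolonged 1, T4 at 4 h against prolonged 23, GN at 4 h against vehicle 2, GN at 4 h against prolonged 1, GN single compounds 4 and GN single compounds at 4 h 1. Array weights gave 6 for MF and 1 for DC single compounds at 4 h, 5 for NK, 2 for T4 and 2 for GN single compounds, and 3 for NK compound pairs. Without apart arrays NK single compounds at 4 h gave 1. GN at 4 h against vehicle gave 0 to 10 when arrays were left out singly, the 10 without the only J2 GN vehicle array.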
